A study of Homo sapiens with 21 samples.

Results

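The respiratory chain genes described here are the subunits of the mitochondrial electron transport complexes and of ATP synthase that the gene symbols identify. Members were all rows of the deposited count table whose symbol begins with NDUFA, NDUFB, NDUFC, NDUFS or NDUFV and a number, is SDHA, SDHB, SDHC or SDHD, begins with UQCR or ATP5, begins with COX4 to COX8, or begins with MT-ND, MT-CO, MT-CYB or MT-ATP. Pseudogenes were left out, and at least 100 counts summed over the 21 libraries were required. This gave 91 genes of 37355 rows, 78 encoded in the nucleus and 13 in mitochondrial DNA, and all 91 were among the 17650 genes tested. MT-ATP6 and MT-ATP8 end in P and a number like pseudogenes but were kept, since the MT-ATP pattern names them. The lowest members inside the limit were NDUFA7 with 163 counts, NDUFV2-AS1 with 295 and ATP5L2 with 352. The highest outside it were NDUFB2-AS1 with 69, NDUFA3 with 53 and NDUFA6-AS1 with 44. Not every member encodes a classic subunit: NDUFV2-AS1 is an antisense RNA gene, and ATP5S, ATP5SL and COX7A2L encode factors that act on assembly or on the joining of complexes. NDUFA4 is counted with complex I by its name, although its protein is now placed in complex IV.

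The respiratory chain passes electrons from NADH (complex I) and succinate (complex II) through complex III to oxygen at complex IV, and ATP synthase (complex V) uses the resulting proton gradient. Complexes I, III, IV and V are mosaics of nuclear and mitochondrial gene products, and complex II is encoded in the nucleus alone. The mitochondrial genes are copied as long transcripts from both strands of a small circular genome and cut into single mRNAs, whereas each nuclear gene has its own promoter. The nuclear regulators classically tied to these promoters are NRF1, the ETS factor GABPA, YY1 and the ERR receptors with their PGC-1 coactivators.

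The cells were BT474, a breast cancer line with amplified HER2. There were 7 groups of 3 libraries: untreated cells, a 3-day exposure to trastuzumab at 10 µg/mL, a 3-day exposure to trastuzumab with pertuzumab at 10 µg/mL of each, and 4 resistant pools. Both antibodies bind HER2, at different sites. BT-TR1 and BT-TR2 are trastuzumab-resistant pools, BT-TPR1 and BT-TPR2 are resistant to both antibodies, and all 4 had no antibody for 7 days before harvest, so they carried resistance without current drug. A resistance class rests on 2 pools, and the 3 libraries of a pool describe that pool. The labels do not say whether replicates were separate cultures, so p-values measure the spread between these libraries, which may be technical. Total counts per library ran from 7939270 to 21746391. The 7 luminal epithelial markers summed to between 7510 and 15360 CPM (counts scaled to a common library size) in every library, and the 3 immune markers in the table to at most 0.26 CPM. ERBB2, the HER2 gene, was the largest part of the luminal sum, at a mean of 8175 CPM untreated. Within that sum GATA3 fell in all 4 pools, at -1.587, -0.906, -1.135 and -0.911 in the order named above (edgeR adjusted p at most 1.12e-05). KRT19 also fell in BT-TR1 (-0.586), CDH1 in BT-TR2 (-0.429) and EPCAM in BT-TPR1 (-0.582), and KRT18 rose in BT-TPR2, at 0.38. With the antibody combination KRT8 (-0.777) and CDH1 (-0.398) fell, and with trastuzumab alone no luminal marker was called. The 6 fibroblast markers summed to 16.4 to 46.5 CPM and the 3 endothelial markers to 5.39 to 18.4 CPM, with the highest values in untreated and BT-TR2 libraries. COL1A1 made up nearly all of the fibroblast sum, at a mean of 32.4 CPM untreated. Beside it COL3A1 stood at 0.335, LUM at 0.156, and COL1A2, DCN and PDGFRB at 0. Of the endothelial markers CDH5 rose in all 4 pools, by 4.41, 4.01, 1.80 and 2.43 from 0.121 CPM untreated, while VWF fell in BT-TR1, BT-TPR1 and BT-TPR2, and their part in the results was not tested. In bulk RNA a change in cell number of a type and a change in RNA per cell cannot be told apart. In every group the replicate 1 library deviated from its group mean toward GC-rich genes (r across genes 0.313 to 0.627, a description, since genes are not independent).

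The 13 MT- genes held far more of the reads than the 78 nuclear members. In the untreated libraries they took 20.6%, 15.6% and 14.9% of counts, against 0.632%, 0.537% and 0.609% for the nuclear members together. Among MT- genes the mean level per kilobase of transcript was highest for the cytochrome c oxidase core subunits MT-CO2, at 43528 CPM per kb, and MT-CO3, at 29873. It was lowest for the complex I subunits MT-ND1, at 5649, and MT-ND6, at 5663. Among nuclear members, which were compared in CPM within a gene only, the largest counts were those of ATP5B and ATP5A1, the catalytic-head subunits of ATP synthase.

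The nuclear members took a larger share in 3 of the 4 pools, while the MT- share did not rise with them. The nuclear share was 0.864%, 0.801% and 0.736% for BT-TR2, 0.866%, 0.832% and 0.750% for BT-TPR1, and 0.820%, 0.845% and 0.776% for BT-TPR2, each above all untreated libraries. In BT-TR1 it was 0.800%, 0.629% and 0.638%, so 1 library lay below the highest untreated one. The MT- share was 16.9%, 13.3% and 15.8% for BT-TR2, 13.5%, 11.5% and 15.2% for BT-TPR1, and 17.6%, 12.04% and 16.3% for BT-TPR2, each group overlapping the untreated range. The MT- share of BT-TR1 was 16.2%, 17.3% and 17.0%, inside the untreated range.

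Set as a ratio, the log2 of nuclear over MT- counts was -4.83 ± 0.21 (SD, n = 3) in untreated cells. It was -4.25 ± 0.18 in BT-TR2, -4.03 ± 0.29 in BT-TPR1 and -4.22 ± 0.33 in BT-TPR2, so higher by 0.58, 0.80 and 0.61 with no overlap between libraries. BT-TR1 was higher by 0.21 with overlap, and by -0.025 on replicates 2 and 3 alone. Taken by replicate number, the rise was 0.74, 0.81 and 0.19 for BT-TR2, 1.06, 1.08 and 0.27 for BT-TPR1, and 0.60, 1.03 and 0.21 for BT-TPR2, smallest in replicate 3 each time. With antibody the ratio lay lower, by 0.27 for trastuzumab and 0.24 for the combination, and overlapped with untreated cells. The ratio is given without a test, since an exact permutation test of 3 libraries against 3 cannot go below p = 0.10.

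**Figure D1:**
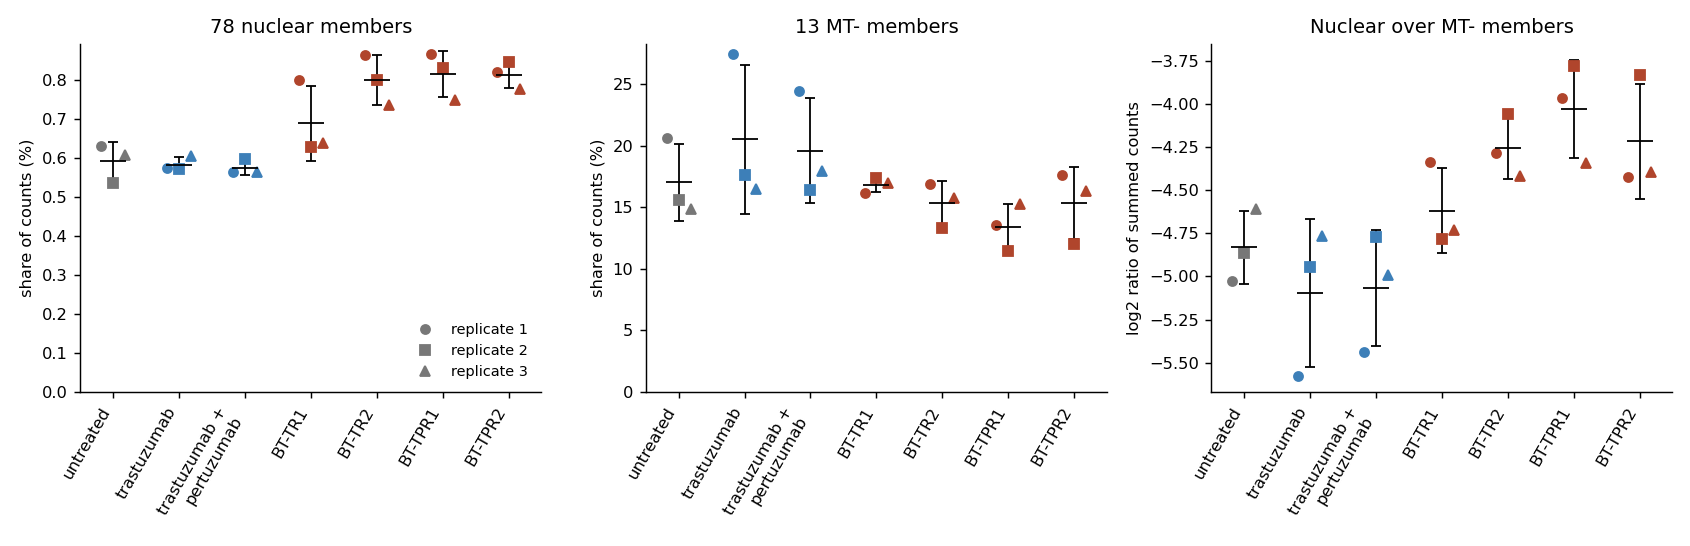
Share of all counts taken by the 78 nuclear members (left, percent) and by the 13 MT- members (middle, percent), and the log2 ratio of the first to the second (right), for each library by group. Symbols are replicates 1, 2 and 3, and bars are the mean ± SD of 3 libraries; in BT-TR2, BT-TPR1 and BT-TPR2 all nuclear shares lie above the untreated ones, and the ratios with them.

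Which respiratory chain genes answered 3 days of antibody? Few passed the test. With trastuzumab 4 nuclear members rose and 1 fell, 5 of 91 or 5.49%, beside 7.48% of all genes called (3.71% risen and 3.78% fallen). With trastuzumab plus pertuzumab the count was again 4 risen and 1 fallen, beside 12.4% of all genes (6.39% and 6.02%). The nuclear median was 0.02 and -0.03 in log2, and that of all genes -0.02 and -0.01. SDHC, a membrane anchor of succinate dehydrogenase, COX7A2L, a supercomplex assembly factor, and ATP5S rose with both treatments. NDUFS7, an iron-sulfur subunit of complex I, fell with both. Both comparisons use the same 3 untreated libraries.

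SDHC stood at 78.7, 73.7 and 84.1 CPM in untreated cells, at 95.2, 105 and 110.1 with trastuzumab, and at 97.5, 103 and 107 with both antibodies. All treated libraries were above all untreated ones, and the log2 changes were 0.39 ± 0.10 (SE; adjusted p = 0.017 from edgeR's quasi-likelihood test) and 0.38 ± 0.10 (adjusted p = 0.013). NDUFS7 was a low gene, at 7.68, 5.63 and 5.08 CPM untreated, 3.03, 2.64 and 2.21 with trastuzumab, and 2.96, 2.86 and 2.19 with both. The groups did not overlap, and it fell by 1.22 (SE 0.36, adjusted p = 0.047) and by 1.20 (SE 0.36, adjusted p = 0.037). NDUFS7 also fell in BT-TPR2, at -1.09 (edgeR adjusted p = 0.029). Its GC content is 60.8%. Of the 13 nuclear members above 57% GC, a split chosen after the values were seen, 11 lay lower with trastuzumab and 12 with the combination. Their medians were -0.37 and -0.434, beside 0.051 and 0.031 for the other nuclear members. The part of GC in the fall was not tested. ATP5J, a coupling subunit of the ATP synthase stalk, rose by 0.51 with trastuzumab (edgeR adjusted p = 0.0074). UQCRFS1, the Rieske iron-sulfur protein of complex III, rose by 0.34 with the combination (edgeR adjusted p = 0.047). The treatments are set against each other below.

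No member was called between the combination and trastuzumab alone by edgeR, beside 0.867% of all genes (0.487% risen and 0.38% fallen). At an unadjusted p under 0.05 there were 2 nuclear members and no MT- member, and DESeq2 and limma called 0. With the replicate block, which paired these libraries, 0 members were called, beside 2.2% of all genes. MT- genes were not called against untreated cells by either treatment, with 0 of 13 also at an unadjusted p under 0.05 and by DESeq2 and limma. Their values leaned upward with trastuzumab (median 0.21 in log2, 10 of 13 higher), and replicate 1 carried the highest MT-CO1 level, 68032 CPM beside 32737 and 31896. Replicate numbers paired the libraries of trastuzumab with those of untreated cells. With the replicate as a block 22 members were called for trastuzumab, beside 26.2% of all genes. Of the MT- genes the block called 1, MT-CO1, higher by 0.52 (edgeR adjusted p = 0.030).

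Most antibody calls were lost when 1 library was left out. The calls of ATP5S with each treatment and of ATP5J with trastuzumab passed whichever library was left out. The NDUFS7 fall with trastuzumab did not pass without any 1 of the 6 libraries, nor the UQCRFS1 rise with the combination. For trastuzumab 2 members were called without untreated replicate 2 or without trastuzumab replicate 3, and 3 without untreated replicate 3 or trastuzumab replicates 1 or 2. For the combination 1 was called without untreated replicate 2 or combination replicate 3, and 3 without untreated replicate 1 or combination replicates 1 or 2.

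Which genes differed in the resistant pools? More nuclear members rose than fell in every pool, and the most in BT-TPR2. BT-TR1 had 21 of 78 risen and 11 fallen, BT-TR2 had 32 risen and 2 fallen, BT-TPR1 had 28 risen and 2 fallen, and BT-TPR2 had 33 risen and 3 fallen. Values for the 4 pools are given in that order from here on, with trastuzumab-resistant pools first. Beside these counts, 21.3%, 12.7%, 12.9% and 15.6% of all genes rose in the 4 pools in that order, and 22.3%, 12.1%, 14.4% and 16% fell. In either direction 43.6%, 24.9%, 27.3% and 31.6% of all genes were called. The nuclear median was 0.20, 0.35, 0.27 and 0.31 in log2, with the all-gene median within 0.01 of 0 in each. For BT-TR1 the share of nuclear members called, 41%, was under that of all genes, 43.6%. By the libraries themselves, 26, 35, 32 and 37 nuclear members lay above all untreated libraries, beside 24.4%, 19.7%, 20.7% and 18.9% of all genes. Those below numbered 11, 3, 6 and 4, beside 25.4%, 18.4%, 20% and 19.1%. The 4 pools are compared with the same 3 untreated libraries, so their counts are not independent.

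With the replicate block the calls were 54 in BT-TR1, 55 in BT-TR2, 56 in BT-TPR1 and 61 in BT-TPR2 of 91, beside 57.5%, 45.8%, 47.4% and 51.1% of all genes. Replicate numbers paired the libraries in these 4 comparisons. In BT-TR2, 18 members were called without BT-TR2 replicate 1, 21 without untreated replicate 2 and 22 without untreated replicate 3.

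**Figure D2:**
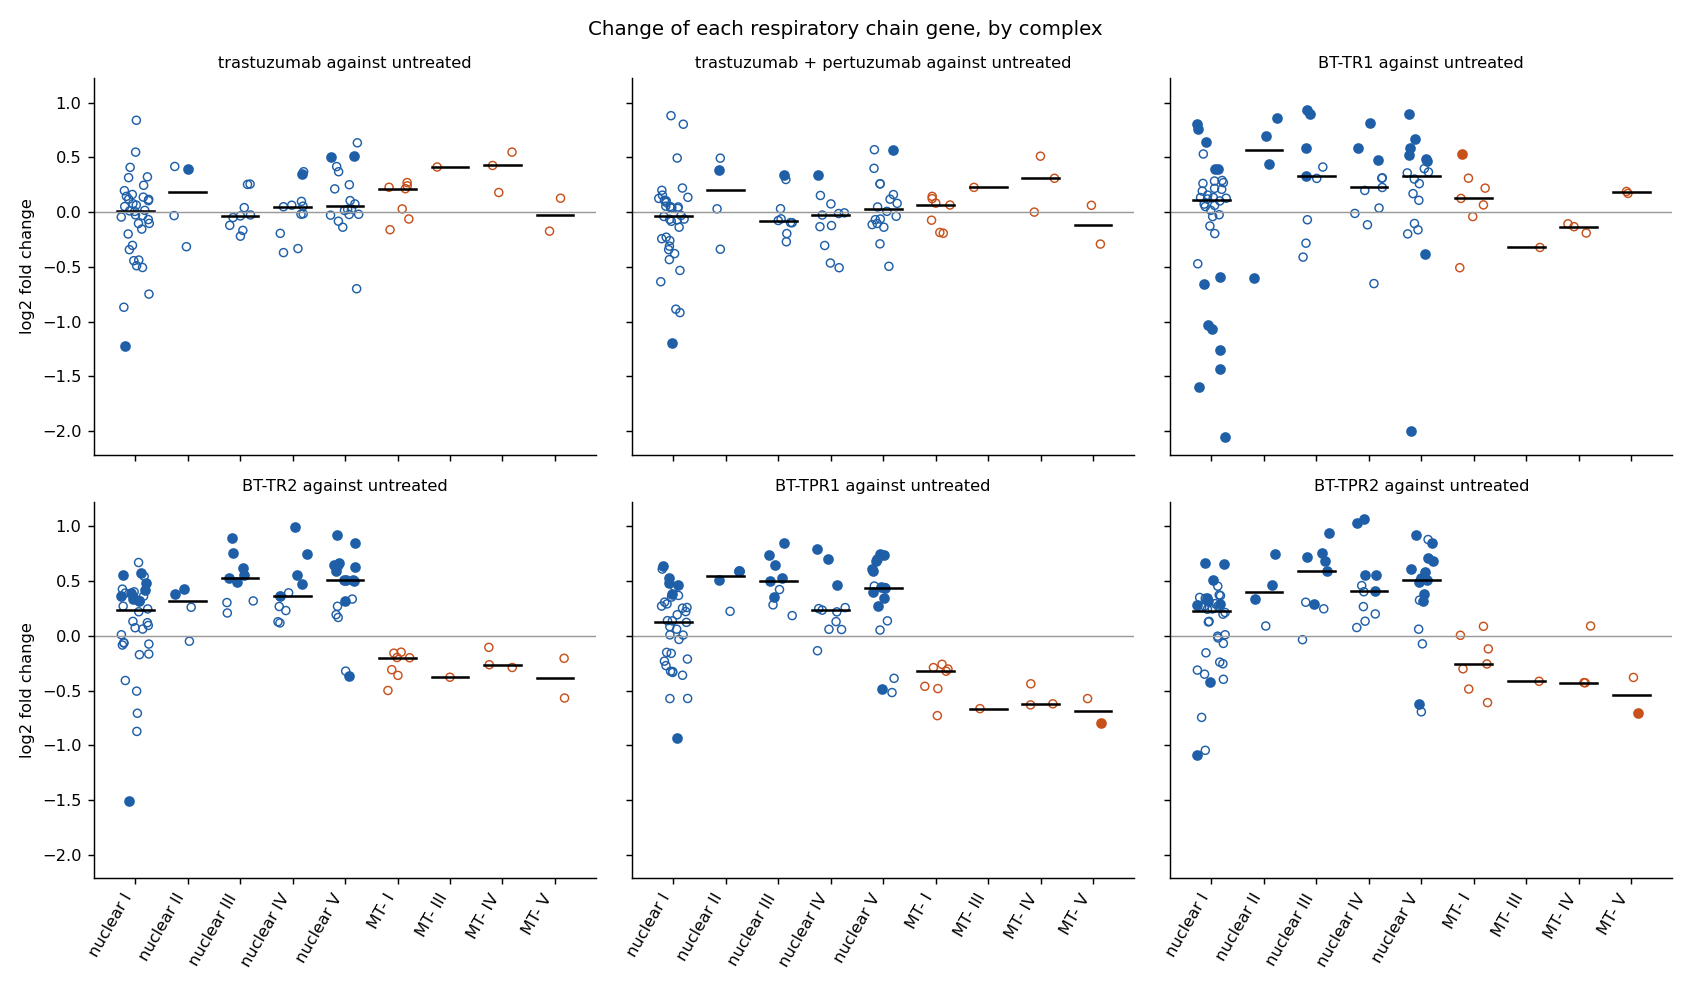
Log2 fold change against untreated cells of each member (y axis), by genome and complex (x axis), for the 2 antibody treatments and the 4 pools. Filled points passed an adjusted p under 0.05 in edgeR, open points did not, and bars are medians; NDUFV2-AS1 is plotted with nuclear complex I. In BT-TR2, BT-TPR1 and BT-TPR2 the nuclear medians lie above 0 and the MT- medians below it.

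The calls were unevenly spread over the complexes. In BT-TPR2, 12 of 18 nuclear complex V members rose, 6 of 9 of complex III, 5 of 11 of complex IV, 3 of 4 of complex II and 7 of 36 of complex I. The order was near the same in BT-TR2 (11, 6, 5, 2 and 8) and BT-TPR1 (11, 6, 3, 3 and 5). In BT-TR1 the counts were 6, 4, 3, 3 and 5, and 8 complex I members fell there. Beside these counts, 15.6% of all genes rose in BT-TPR2, 12.7% in BT-TR2, 12.9% in BT-TPR1 and 21.3% in BT-TR1, where 22.3% fell. The complex I rises were near the share of all genes in BT-TPR1 and under it in BT-TR1. The complex I falls in BT-TR1 were near that of all genes. The difference between complexes was not tested.

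There were 14 members that rose in all 4 pools, beside 5.42% of all genes. They were ATP5A1, ATP5B, ATP5C1, ATP5J and ATP5L of complex V, UQCRB, UQCRFS1 and UQCRHL of complex III, COX6B1, COX6C and COX7A2L of complex IV, SDHB and SDHC of complex II, and NDUFB3 of complex I. ATP5S was the single member that fell in all 4, beside 4.79% of all genes. The count of risen members was 7 when only the compared groups entered each fit, 11 with no filter, 17 with DESeq2 and 30 with the replicate block. Beside these counts, 2.61%, 2%, 2.6% and 10.7% of all genes rose in all 4 pools, over 15961, 37355, 37355 and 17650 genes.

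Each of these 14 is a separate nuclear gene with its own start site, and promoter letters are shown for those with a match just before it. RefSeq (GRCh38.p14) gave windows of 250 bases before to 50 after the start for 62 of the 78 nuclear members and for 9 of the 14. UQCRHL, SDHC, UQCRB, COX6C and ATP5B were not matched. Both strands were searched for 4 strings. The NRF1 string GCGCA-N-GCGC was in 14 of 62 member windows (22.6%, beside 5.9% of all 27305 promoters), and the ETS string CCGGAAG in 19 (30.6%, beside 10.5%). The YY1 string AAGATGGCG was in 8 (12.9%, beside 1.79%) and the ERR string TCAAGGTCA in 1 (1.61%, beside 0.348%). A match is a description and no sign of binding. In the whole windows of the 9 risen genes the NRF1 string was in 2, the ETS string in 5, the YY1 string in 2 and the ERR string in 0. The 100 bases just before the start hold a match in 5 of these 9, and none in SDHB, COX7A2L, NDUFB3 and ATP5L. The 5 stretches with a match are printed 5′ to 3′ on the gene's strand, with the matched letters in capitals. The first 2 hold the NRF1 string and the other 3 the ETS string, read on either strand:
ATP5C1: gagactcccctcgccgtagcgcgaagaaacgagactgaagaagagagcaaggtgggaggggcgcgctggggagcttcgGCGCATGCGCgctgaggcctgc
UQCRFS1: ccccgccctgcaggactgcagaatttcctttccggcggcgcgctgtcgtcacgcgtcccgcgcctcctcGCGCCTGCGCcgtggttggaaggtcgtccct
ATP5A1: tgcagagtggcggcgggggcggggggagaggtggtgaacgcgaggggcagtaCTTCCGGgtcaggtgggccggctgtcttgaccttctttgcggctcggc
COX6B1: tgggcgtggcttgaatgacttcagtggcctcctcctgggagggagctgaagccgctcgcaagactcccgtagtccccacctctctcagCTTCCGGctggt
ATP5J: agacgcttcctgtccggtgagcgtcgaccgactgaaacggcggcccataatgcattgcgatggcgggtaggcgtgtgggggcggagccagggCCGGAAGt

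These stretches lie at chr10:7788077-7788176 on the plus strand for ATP5C1, chr19:29213152-29213251 on the minus strand for UQCRFS1, chr18:46098297-46098396 on the minus strand for ATP5A1, chr19:35648223-35648322 on the plus strand for COX6B1 and chr21:25734905-25735004 on the minus strand for ATP5J. RefSeq lists ATP5C1, ATP5A1 and ATP5J as ATP5F1C, ATP5F1A and ATP5PF. The ETS match of COX6B1 and of ATP5J ends within a few bases of the start, and the NRF1 match of ATP5C1 lies farther from it. Their levels follow, complex by complex.

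Complex V gave the most risen members. ATP5A1 and ATP5B encode the alternating alpha and beta subunits of the catalytic head, ATP5C1 the rotating shaft, and ATP5J and ATP5L parts of the stalk and membrane sector. ATP5B stood at 874, 600.2 and 749.9 CPM in untreated cells and at 1234, 958 and 923 in BT-TR1 libraries, 1268, 1061 and 1028 in those of BT-TR2, 1107, 962 and 968 for BT-TPR1, and 1121, 1143 and 1129 for BT-TPR2. Every pool library was above every untreated one, with log2 changes of 0.49, 0.59, 0.45 and 0.61 and adjusted p of 0.0073, 0.0032, 0.018 and 0.002 (edgeR). In BT-TPR1 the call was lost without untreated replicate 2 (0.35) or BT-TPR1 replicate 1 (0.38).

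ATP5J gave one of the larger and steadier rises. It stood at 20.9, 21.9 and 25.0 CPM untreated, and at 43.7, 39.8 and 42.7 in BT-TR1 libraries, 43.4, 43.9 and 41.6 in those of BT-TR2, 35.8, 40.4 and 38.2 for BT-TPR1, and 38.5, 45.2 and 45.3 for BT-TPR2. The pools lay far above the untreated range, with log2 changes of 0.90, 0.93, 0.75 and 0.93 (SE 0.11 in each, edgeR adjusted p at most 5.9e-05). ATP5C1 stood at 107, 99.5 and 105 CPM untreated and between 125 and 177 in the pools, higher by 0.67, 0.65, 0.34 and 0.53. ATP5A1 stood at 559, 449 and 492 CPM untreated and between 590.4 and 762 in the pools, higher by 0.47, 0.32, 0.44 and 0.39. All of these rises passed the test in all 4 pools.

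The ring of c subunits is encoded by ATP5G1, ATP5G2 and ATP5G3, which give the same mature protein. ATP5G2 and ATP5G3 rose in BT-TR2 (0.63 and 0.66), BT-TPR1 (0.70 and 0.74) and BT-TPR2 (0.84 and 0.68), while ATP5G1 was called in no pool (-0.20, 0.20, -0.52 and -0.07). ATP5I, a membrane-sector subunit, rose in the same 3 pools, by 0.85, 0.69 and 0.71. ATP5O, which joins the peripheral stalk to the head, rose by 0.51, 0.40 and 0.58 in those pools. ATP5F1, another peripheral stalk subunit, rose by 0.52 in BT-TR1, 0.28 in BT-TPR1 and 0.32 in BT-TPR2, with 0.17 and no call in BT-TR2. ATP5D, the delta subunit of the central stalk, fell by 2.00 in BT-TR1 and had -0.32, -0.39 and -0.69 elsewhere, with no call. In BT-TR2 the c-ring genes ATP5G2 and ATP5G3 lost their calls without untreated replicate 2 (0.43 and 0.53) or BT-TR2 replicate 1 (0.48 for each), and ATP5G3 also without untreated replicate 3 (0.65).

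ATP5S went the other way. It encodes factor B, a small protein associated with ATP synthase, and lies at chr14:50312326-50335558 (hg38, plus strand). It stood at 19.6, 23.3 and 19.3 CPM untreated, at 30.0, 28.1 and 30.8 with trastuzumab, and at 30.3, 30.3 and 31.8 with both antibodies. All 6 treated libraries were above the untreated ones, with changes of 0.51 ± 0.10 and 0.57 ± 0.10 (edgeR adjusted p = 0.0043 and 0.0011). In the pools it stood at 15.7, 15.9 and 16.2 in BT-TR1 libraries, 15.0, 17.4 and 16.0 in those of BT-TR2, 14.3, 16.2 and 14.1 for BT-TPR1, and 12.4, 14.2 and 13.7 for BT-TPR2, all below the untreated range. It fell by 0.38, 0.36, 0.48 and 0.62 (edgeR adjusted p = 0.0077, 0.016, 0.0022 and 0.00018). Scaled by library size alone the falls in BT-TR1, BT-TR2 and BT-TPR1 did not pass, and without untreated replicate 2 those in BT-TR1 and BT-TR2 did not, at -0.26 in both. In BT-TR2 the fall was also lost without BT-TR2 replicate 1 (-0.31) or replicate 3. It was the only member that rose with antibody and fell in pools, and all these comparisons share the untreated libraries.

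Of the 9 complex III members, 6 rose and none fell in BT-TR2, and the same counts held in BT-TPR1 and in BT-TPR2. Of all genes 12.7%, 12.9% and 15.6% rose in these pools. UQCRFS1 stood at 50.5, 45.6 and 52.3 CPM untreated, and at 101, 85.2 and 97.7 in BT-TR1 libraries, 98.0, 93.0 and 85.3 in those of BT-TR2, 84.4, 87.2 and 76.0 for BT-TPR1, and 72.9, 84.2 and 87.0 for BT-TPR2. No pool library came near the untreated range, and the log2 changes were 0.94, 0.90, 0.74 and 0.72 (SE 0.11 in each, edgeR adjusted p at most 5.6e-05). UQCRB, a small ubiquinone-binding subunit, stood at 58.6, 86.5 and 89.7 CPM untreated and between 109.8 and 171 in the pools, higher by 0.90, 0.62, 0.65 and 0.76. UQCRQ, a small subunit, rose by 0.56 in BT-TR2 and 0.68 in BT-TPR2, and UQCR10 by 0.53 in BT-TR2 and in BT-TPR1. UQCRC2, a core subunit, rose by 0.33, 0.36 and 0.30 in BT-TR1, BT-TPR1 and BT-TPR2, and had 0.21 in BT-TR2 with no call.

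UQCRHL and UQCRH are near-identical hinge-protein genes, so reads may have been split between them. UQCRHL held 32990 counts over all libraries and UQCRH 14727. UQCRHL rose by 0.59, 0.76, 0.85 and 0.94 in the 4 pools. UQCRH had 0.31 in BT-TR1 with no call, and rose by 0.49, 0.50 and 0.59 in the other 3 pools, so both rows lay higher. As reads may be split, these values cannot show whether both genes rose. Both rows are counted among the complex III rises in BT-TR2, BT-TPR1 and BT-TPR2.

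Complex IV members called in all 4 pools were the peripheral subunits COX6B1 and COX6C, and COX7A2L. COX6B1, which sits on the outer face and bridges the dimer, stood at 84.4, 59.9 and 84.2 CPM untreated, and at 127, 104 and 112 in BT-TR1 libraries, 171, 148 and 137 in those of BT-TR2, 123, 115 and 134 for BT-TPR1, and 162, 153 and 164 for BT-TPR2. The ranges were apart, and the log2 changes were 0.59, 1.00, 0.70 and 1.06 (edgeR adjusted p = 0.0022, 2.7e-05, 0.00076 and 8.6e-06). COX7A2L stood at 30.1, 30.1 and 32.3 CPM untreated and between 45.8 and 67.3 in the pools, higher by 0.81, 0.75, 0.79 and 1.03. COX6C, which lies on chromosome 8, rose by 0.48, 0.55, 0.46 and 0.56.

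Other complex IV genes moved less. COX7A2 rose in BT-TR2 (0.36) and BT-TPR2 (0.56), and had 0.23 and 0.26 in BT-TR1 and BT-TPR1 with no call. The COX7A2 call in BT-TR2 was lost without untreated replicates 2 or 3 (0.36 in both), without BT-TR2 replicates 1 or 2 (0.30 and 0.36), with the GC correction (0.34) and with pseudogene copies summed (0.29). COX4I1, the subunit with the highest CPM, had -0.01, 0.23, 0.06 and 0.20, COX6A1 0.04, 0.12, -0.14 and 0.14, and COX8A -0.65, 0.27, 0.06 and 0.08, none called. NDUFA4 had -0.02, 0.01, -0.16 and 0.01. The muscle-type isoform genes COX6A2 and COX7A1 had 1 and 18 counts in all libraries together, and COX4I2, another isoform gene, had 2. All were below the limit for members.

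Complex II split between its subunits. SDHB, the iron-sulfur subunit, stood at 49.7, 50.7 and 48.5 CPM untreated, and at 68.8, 63.5 and 70.3 in BT-TR1 libraries, 70.0, 63.4 and 60.6 in those of BT-TR2, 79.1, 77.9 and 68.3 for BT-TPR1, and 78.1, 83.8 and 87.8 for BT-TPR2. All pool libraries were higher, by 0.44, 0.38, 0.60 and 0.75 in log2 (SE 0.09 in each, edgeR adjusted p at most 0.004). SDHC, called with antibody, also rose in the pools, by 0.69, 0.43, 0.59 and 0.34. SDHD, the other membrane anchor, rose in BT-TR1, BT-TPR1 and BT-TPR2, by 0.86, 0.51 and 0.46, with 0.26 and no call in BT-TR2. The calls in both BT-TPR pools were lost without untreated replicates 1 (0.42 and 0.37) or 2 (0.53 and 0.47), and without replicates 2 or 3 of the pool.

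SDHA, the flavoprotein that holds the catalytic site, stood at 467, 297 and 357 CPM untreated and at 294, 228 and 217 in BT-TR1. It fell by 0.60 there (edgeR adjusted p = 0.012), a call that did not pass without untreated replicate 1 (-0.39) or BT-TR1 replicates 2 (-0.52) or 3 (-0.50). In BT-TR2, BT-TPR1 and BT-TPR2 it had -0.05, 0.23 and 0.09, none called.

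Complex I, with 36 nuclear members, gave the fewest rises for its size. NDUFB3, an accessory subunit of the membrane arm, was the one that rose in all 4 pools. It stood at 17.5, 20.2 and 18.4 CPM untreated, and at 35.6, 33.3 and 28.6 in BT-TR1 libraries, 28.8, 29.2 and 24.7 in those of BT-TR2, 28.1, 32.3 and 26.8 for BT-TPR1, and 28.5, 30.4 and 29.2 for BT-TPR2. The ranges did not meet, with changes of 0.80, 0.56, 0.64 and 0.65 (edgeR adjusted p at most 0.0028).

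Among the core subunits, NDUFS1, which carries iron-sulfur clusters of the matrix arm, rose in BT-TR1, BT-TPR1 and BT-TPR2 by 0.64, 0.39 and 0.28. The NDUFS1 call in BT-TPR1 was lost without BT-TPR1 replicate 2 (0.34), and that in BT-TPR2 without untreated replicates 1 or 3 (0.30 and 0.25) or BT-TPR2 replicates 2 or 3 (0.20 and 0.26). NDUFS3, also of the matrix arm, rose by 0.36 in BT-TR2 and 0.29 in BT-TPR2. Of the accessory subunits, NDUFA8 rose by 0.57 in BT-TR2, 0.53 in BT-TPR1 and 0.67 in BT-TPR2, and NDUFS4 by 0.39, 0.32 and 0.48 in the first 3 pools. NDUFA5 rose by 0.76 in BT-TR1 and had 0.55, 0.61 and 0.38 in the other pools with no call. NDUFB1, an accessory subunit, fell by 0.42 in BT-TPR2 and had -0.27 in BT-TPR1. Pseudogene copies hold 44.2% of the summed counts of NDUFB1, and with the copies summed its value was -0.11 with no call.

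**Figure D3:**
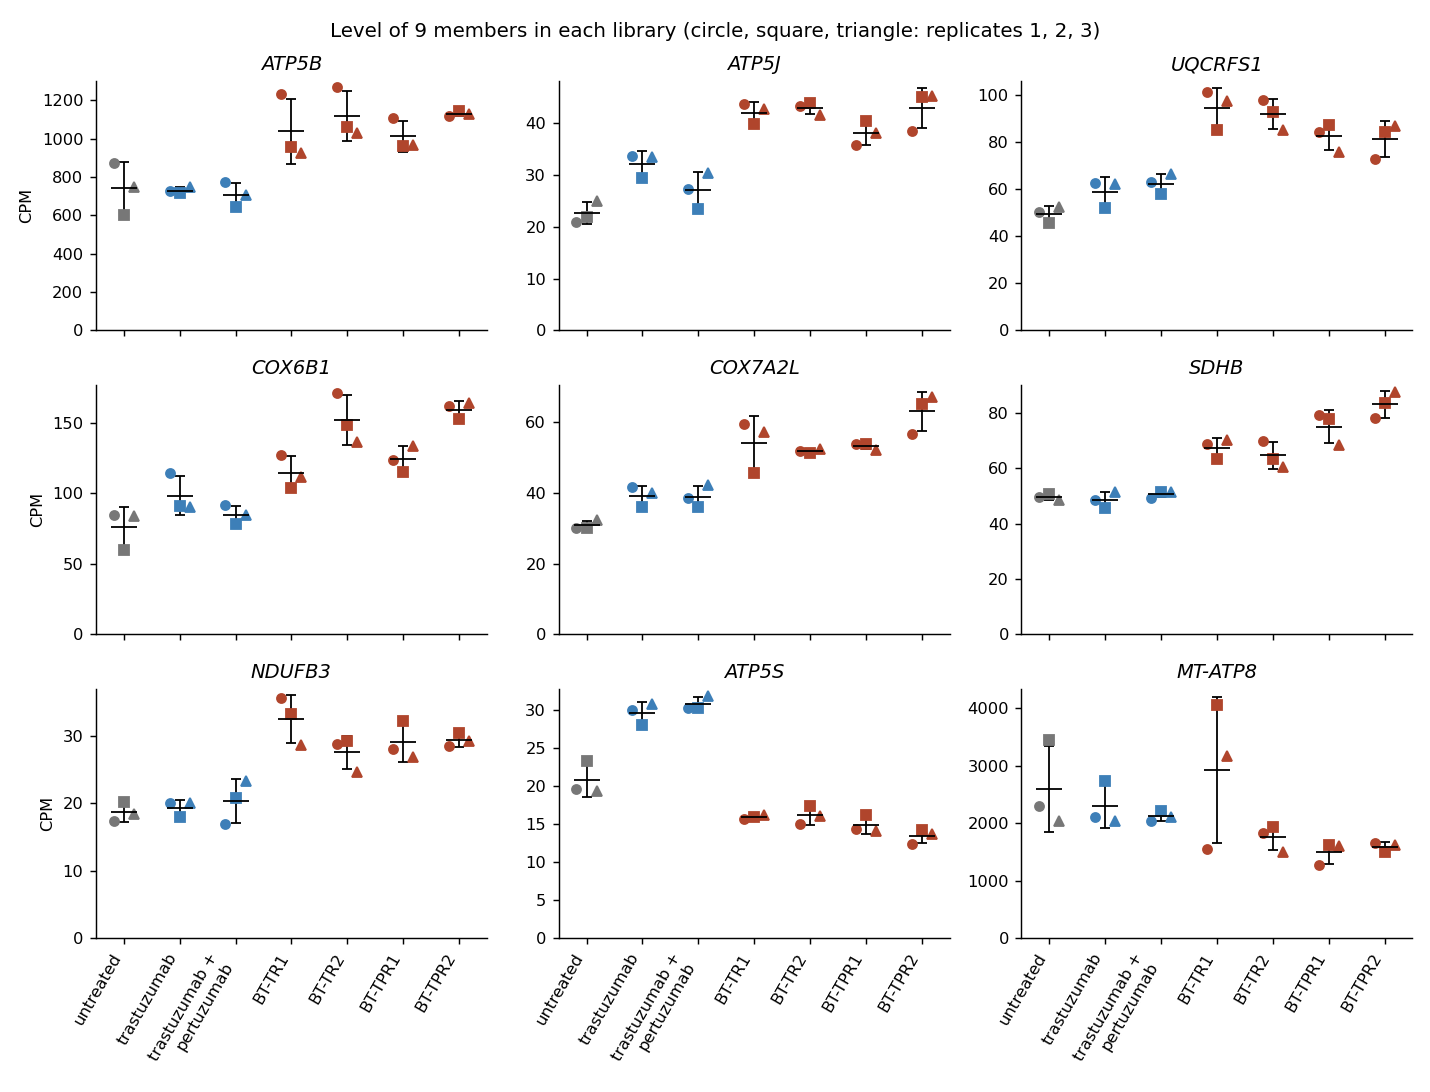
CPM (y axes from 0) of 9 members in each library by group, with mean ± SD of 3 libraries as bars and replicates 1, 2 and 3 as circle, square and triangle. ATP5B, ATP5J, UQCRFS1, COX6B1, COX7A2L, SDHB and NDUFB3 lie above the untreated range in every pool library, ATP5S lies below it in the pools and above it with antibody, and MT-ATP8 spreads widely in untreated and BT-TR1 libraries.

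The 13 MT- genes did not share the nuclear rise. In BT-TR2 and BT-TPR1 all 13 had values below 0, with medians of -0.26 and -0.48, and in BT-TPR2 10 of 13 did, with a median of -0.38. In BT-TR1 7 were above and 6 below, with a median of 0.07, or -0.08 after the GC correction described below. The counts of higher and lower MT- genes were the same when libraries were scaled by size factors of DESeq2, by library size alone or without the MT- rows. Few passed the test: 1 rose in BT-TR1, none was called in BT-TR2, and 1 fell in each of BT-TPR1 and BT-TPR2. For the 0 in BT-TR2, 1 MT- gene had an unadjusted p under 0.05 in edgeR, and DESeq2 and limma called 0. With the replicate block 2, 2, 6 and 5 of 13 were called in the 4 pools, beside 57.5%, 45.8%, 47.4% and 51.1% of all genes.

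MT-ATP8, a small subunit of the ATP synthase stalk, was the MT- gene that fell in both BT-TPR pools. It stood at 2302, 3454 and 2030.3 CPM untreated, 1267, 1622 and 1596 in BT-TPR1 libraries, and 1657, 1489.6 and 1626 for BT-TPR2. It fell by 0.80 (edgeR adjusted p = 0.022) and by 0.71 (edgeR adjusted p = 0.036), with no overlap. Without untreated replicate 2, the highest, the values were -0.50 and -0.42 and neither passed. The call in BT-TPR1 was also lost without BT-TPR1 replicate 1 (-0.69), and that in BT-TPR2 without any 1 of its libraries. Scaled by library size alone neither passed. In BT-TR2 it stood at 1837, 1925 and 1494 CPM, below the untreated range, with -0.57 and no call. Its end overlaps the start of MT-ATP6 (M:8366-8572 and M:8527-9207, plus strand), so reads there may belong to either.

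MT-ND6 is the only MT- member on the minus strand (M:14149-14673), next to MT-ND5 on the plus strand (M:12337-14148). It stood at 2854, 3147 and 2379 CPM untreated and at 3159.9, 4464 and 4490.1 in BT-TR1, and rose by 0.53 (edgeR adjusted p = 0.047). The lowest BT-TR1 library was just above the highest untreated one, and the call was lost without untreated replicates 1 or 3 (0.57 and 0.43) or without BT-TR1 replicates 2 or 3. It was also lost with the GC correction (0.33) and when libraries were scaled without the MT- rows (0.49). MT-ND4L, which overlaps MT-ND4, had -0.51, -0.50, -0.73 and -0.61 in the 4 pools, none called.

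The MT- mRNAs with the largest counts varied within groups. MT-CO1 stood at 41015, 24676 and 25070.3 CPM untreated, 33150.0, 22589 and 28688 for BT-TR2, 23875, 17335 and 25827 for BT-TPR1, and 38908, 23208 and 34532 for BT-TPR2. Replicate 1 was the highest and replicate 2 the lowest in most groups, and the groups overlapped. MT-CYB, the one mitochondrial subunit of complex III, stood at 19618, 11039 and 11642 CPM untreated and at 9532, 6761 and 10408 in BT-TPR1. Its BT-TPR1 libraries all lay below the untreated ones, with -0.66 ± 0.31 and an edgeR adjusted p of 0.12. MT-CO2 (-0.62), MT-CO3 (-0.63) and MT-ATP6 (-0.57) were also below without overlap in BT-TPR1 and not called. MT-ND1, MT-ND2, MT-ND3, MT-ND4 and MT-ND5 had -0.48, -0.46, -0.26, -0.29 and -0.30 there.

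BT-TR1 had more falls among nuclear members than the other pools. The 11 of 78 that fell there are a lower share than the 22.3% of all genes fallen. Of complex I 8 of 36 fell, near the share of all genes, so these counts are no result about the members. The BT-TR1 libraries held 13432287, 11970803 and 7939270 counts, fewer than any library of the other groups. The largest falls were -2.06 for NDUFA11, that of ATP5D given above, -1.60 for NDUFS7, -1.44 for NDUFB7 and -1.26 for NDUFS8. NDUFS7 and NDUFS8 carry iron-sulfur clusters near the quinone site, NDUFV1 binds NADH, and NDUFA11 and NDUFB7 are accessory subunits. NDUFV1 stood at 235, 139 and 155 CPM untreated and at 114, 80.2 and 62.9 in BT-TR1. It fell by 1.03 (edgeR adjusted p = 0.0033), without overlap, and had -0.08, -0.21 and -0.25 in the other pools. NDUFA11 stood at 12.5, 7.28 and 5.89 CPM untreated and at 2.37, 2.35 and 1.19 in BT-TR1 (edgeR adjusted p = 0.0056). NDUFS8 stood at 129, 68.2 and 69.3 CPM untreated and at 47.6, 36.8 and 26.5 in BT-TR1. NDUFB7 and NDUFS8 did not pass without untreated replicate 1, at -1.07 and -0.87, or without BT-TR1 replicate 3, at -1.24 and -1.05.

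The members that fell in BT-TR1 were rich in GC. Their median GC content was 59.4%, against 43.6% for the 21 that rose. Of the 13 nuclear members above 57% GC, a split chosen after the values were seen, 7 fell and none rose, with a median of -1.03. Of the 65 others 21 rose and 4 fell, with a median of 0.27. Over all genes the log2 change in BT-TR1 correlated with GC at r = -0.478, against -0.0797 in BT-TR2, -0.107 in BT-TPR1 and -0.142 in BT-TPR2, a description across genes. The part of GC in these falls was not tested, since a correction also takes out any change of the pool that runs with GC. Each library was corrected for GC. Then 9 of the 11 falls and 18 of the 21 rises passed, NDUFA11 at -1.10, ATP5D at -0.89, NDUFS7 at -0.86 and NDUFV1 at -0.38, while NDUFB7 (-0.22) and NDUFA13 (-0.23) did not.

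**Figure D4:**
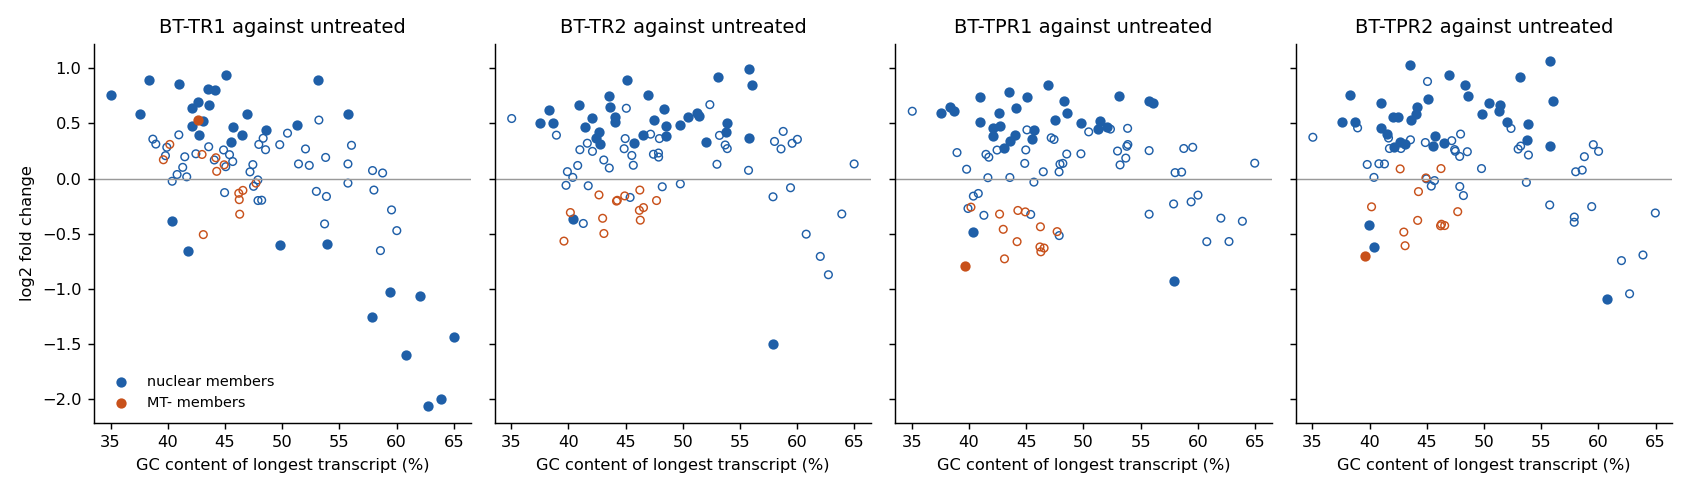
Log2 fold change against untreated cells (y axis) of the nuclear (blue) and MT- (orange) members against the GC content of their longest transcript (x axis, percent), 1 panel per pool, with filled points called at an adjusted p under 0.05 in edgeR. In BT-TR1 the members above 57% GC fall to a median of -1.03, and in BT-TR2 they have a median of -0.08.

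Set directly against each other, BT-TR2 and BT-TR1 differed in 21 members: 14 nuclear members rose, 5 fell and 2 MT- genes fell in BT-TR2 relative to BT-TR1, beside 17.7% of all genes called (9.64% risen and 8.09% fallen). NDUFV1 stood at 217, 147 and 134 CPM in BT-TR2, and was higher there by 0.95 (edgeR adjusted p = 0.018). NDUFS6, a zinc-binding accessory subunit, stood at 105, 75.7 and 67.1 CPM in BT-TR2 and at 55.1, 40.5 and 40.3 in BT-TR1, higher by 0.86 (edgeR adjusted p = 0.0081). NDUFS1 went the other way, at 153, 159 and 169.9 CPM against 203, 215 and 216, so it fell by 0.40 (edgeR adjusted p = 0.015). None of these 3 overlapped.

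The count rests on single libraries, being 4 without BT-TR1 replicate 2, 1 without BT-TR1 replicate 3 and 2 without BT-TR2 replicate 1. The all-gene change correlated with GC at r = 0.629, and with the GC correction 11 members were called. Of the original calls 8 nuclear rises and 2 nuclear falls passed under that correction.

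NDUFV2-AS1, which overlaps NDUFV2 on the opposite strand (chr18:9121265-9136645, minus, and chr18:9102630-9134345, plus), stood at 0.419, 0.411 and 0.128 CPM in BT-TR2. In BT-TR1 it stood at 0.963, 0.869 and 1.19, so it was lower in BT-TR2 by -1.58 (edgeR adjusted p = 0.013). As the sources used here do not state strand in counting, its reads cannot be told from those of NDUFV2.

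BT-TPR2 and BT-TPR1 did not differ in any member by edgeR, beside 3.45% of all genes called (1.64% risen and 1.81% fallen). At an unadjusted p under 0.05 there were 7 nuclear members and 0 MT- genes, and DESeq2 and limma called 0. Replicate numbers paired these libraries, and with the replicate block 7 members were called, beside 12% of all genes. NDUFV3, an accessory subunit, had -0.29 ± 0.10 (edgeR adjusted p = 0.13), and COX6B1 had 0.36 ± 0.13 (edgeR adjusted p = 0.18), both without overlap.

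Pseudogene copies touch several members. Of the nuclear members 30 have copies in the table, and for 3 the copies hold more counts than the gene: 98.3% of the sum for NDUFV2, 67% for ATP5H and 53.2% for ATP5E. For COX6A1 the share was 49.4%. NDUFV2 alone had 667 counts in all libraries and was called in no pool (0.10, -0.41, -0.33 and 0.13). Summed with its copy it was higher by 0.71, 0.57, 0.89 and 0.79 (edgeR adjusted p = 0.00044, 0.0038, 7.1e-05 and 0.00017). ATP5H gave 0.48, 0.52, 0.42 and 0.53 when summed, and passed in all 4 pools, and 0.26, 0.27, 0.14 and 0.33 alone with no call. With copies summed 19 members rose in all 4 pools. Of MT- genes, MT-ATP6 had 11.6% and MT-ND2 4.42% of the summed counts on a nuclear copy, and the others under 2%.

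Genes that act with the chain but lie outside the symbol patterns gave mixed counts. Values of all gene lists here and below come from the edgeR fit over all 21 libraries, with no GC correction and no library left out. In BT-TR1 the all-gene change correlated with GC at r = -0.478, and the part of GC in the list values was not tested. For reading the counts of these lists, 21.3%, 12.7%, 12.9% and 15.6% of all genes rose in the 4 pools and 22.3%, 12.1%, 14.4% and 16% fell. Of 14 tested subunits and carriers, 6 rose and 2 fell in BT-TR1 libraries, 7 and 1 in those of BT-TR2, 2 and 1 for BT-TPR1, and 3 and 0 for BT-TPR2. CYCS, the electron carrier cytochrome c, rose in all 4 pools by 0.89, 0.55, 0.63 and 0.42, and NDUFAB1, the acyl carrier subunit of complex I, by 0.53, 0.60, 0.52 and 0.60. CYC1, the cytochrome of complex III, fell by 0.79 in BT-TR1. USMG5, an ATP synthase membrane subunit, rose in BT-TR2 by 0.70, and SQRDL, which feeds electrons from sulfide, fell by 0.57 in BT-TPR1.

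Of 46 assembly factors, 19 rose and 4 fell in BT-TR1 libraries, 10 and 1 in those of BT-TR2, 15 and 1 for BT-TPR1, and 12 and 1 for BT-TPR2, beside 21.3%, 12.7%, 12.9% and 15.6% of all genes risen. COA3, an assembly factor of cytochrome c oxidase, rose by 0.32, 0.81, 0.70 and 0.63. COX14, which acts at the same step, rose in BT-TR2, BT-TPR1 and BT-TPR2 by 0.85, 0.61 and 0.88, and COX17, a copper chaperone, by 0.61, 0.64 and 0.71. UQCC3, of complex III, fell by 1.35 in BT-TR1, and LYRM7, of the same complex, rose there by 0.81.

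Of 16 genes for copying and transcribing mitochondrial DNA, BT-TR1 had 3 risen and 3 fallen, BT-TR2 and BT-TPR1 had 2 risen and 0 fallen each, and BT-TPR2 had 2 risen and 1 fallen. The risen share of this list was near that of all genes (21.3%, 12.7%, 12.9% and 15.6%) in each pool, so the counts are no result about the list. TFB2M, a transcription factor of mitochondria, rose in all 4 pools by 0.62, 0.42, 0.41 and 0.41. POLRMT, the mitochondrial RNA polymerase, fell by 1.87 in BT-TR1 and by 1.21 in BT-TPR2. Of 16 genes for handling mitochondrial RNA, 9 rose and 1 fell in BT-TR1, and 1 rose in each other pool. That gene was FASTKD5, a processing factor for mitochondrial mRNAs, higher by 0.72, 0.33, 0.52 and 0.52.

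Of 10 nuclear regulators, 2 rose and 4 fell in BT-TR1 libraries, 0 and 2 in those of BT-TR2, 0 and 0 for BT-TPR1, and 1 and 2 for BT-TPR2, beside 22.3%, 12.1%, 14.4% and 16% of all genes fallen. PPARGC1A, the coactivator PGC-1 alpha, rose with the antibody combination by 0.77 and fell by 0.65 in BT-TR2 and by 0.90 in BT-TPR2. PPARGC1B, the coactivator PGC-1 beta, rose with the combination by 0.49 and also in BT-TPR2, by 0.25. In BT-TR1 ESRRA, the ERR alpha receptor, fell by 1.10 and NRF1 by 0.52, while GABPA rose by 0.69 and YY1 by 0.625. MYC fell by 0.52 and 0.42 in the 2 trastuzumab-resistant pools and by 0.55 in BT-TPR2.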

How the data were processed

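The 21 RNA-seq libraries came from BT474 cells and their 4 resistant pools. The authors deposited raw read counts per gene and variance-stabilized values on a log2-like scale. Bowtie2, featureCounts, DESeq2 and hg38 are named per the submitters' processing notes. Tool versions, their roles, annotation release and strand setting are not given in the sources used here. Counts were fitted in R 4.3.3 with edgeR 4.0.16: filterByExpr by group (minimum count 10, total 15), TMM scaling, 1 quasi-likelihood fit over all 21 libraries with 14 residual degrees of freedom, and Benjamini-Hochberg adjustment over 17650 genes, called under 0.05. CPM are counts divided by the TMM-scaled library size. Positions and GC content came from GENCODE 29. Alternatives were other scalings, no filter, DESeq2 1.42.0, limma 3.58.1 on the deposited log2 values, only the compared groups, the replicate block, replicates 2 and 3 alone, a GC correction (spline, 5 degrees of freedom), and each library left out. Summing pseudogene copies was chosen after seeing the data.

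Named genes were the 13 MT- genes, and in each comparison the 5 largest rises and 5 largest falls among called nuclear members without overlap. To these came the highest nuclear member of each complex, isoform genes, members called in both directions and the 2 largest called genes of each list. The members and lists were chosen with earlier results of these data known. Deviations of same-numbered libraries from their group means correlated above 0.1 in every pair in 7 of 9 comparisons, from the data and not the labels, and not for the combination against untreated cells or BT-TR2 against BT-TR1. On data simulated for BT-TR2 against untreated cells over 17650 genes, 18.2% of changes of 1.5-fold, 68.7% of 2-fold and 92.4% of 4-fold were recovered, with 5 false calls of 124. The simulated counts were independent draws around 1 mean per gene, with 67, 67 and 66 genes changed. They held no replicate or GC shifts shared across genes, so these rates do not carry over to the real libraries. The values of 1 named member are not reported here.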

Additional observations from a re-analysis of the deposited data

Results flagged for a closer look

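The 2 trastuzumab-resistant pools were each compared with the same untreated cells. In the test of the difference itself (BT-TR2 against BT-TR1, edgeR) 14 of 91 members rose and 7 fell, beside 17.7% of all genes called. The difference is listed for the 16 of them that are among the named members. In log2 it was 1.68 for ATP5D, 1.57 for NDUFB7, 1.09 for NDUFS8, 0.95 for NDUFV1, 0.86 for NDUFS6, 0.59 for NDUFB4, 0.55 for SDHA, 0.55 for ATP5I and 0.41 for COX6B1. It was -0.35 for ATP5F1, -0.39 for NDUFC2, -0.40 for NDUFS1, -0.59 for SDHD, -0.68 for MT-ND6, -0.74 for MT-ATP8 and -1.58 for NDUFV2-AS1. Without BT-TR1 replicate 3 only 1 member was called. With the GC correction 8 of the 14 nuclear rises and 2 of the 5 nuclear falls passed.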

How the results depend on the processing

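Member calls under other settings, against 5, 5, 33, 34, 31, 37, 21 and 0 as reported, were as follows. Trastuzumab had 3 with library size alone, 9 with no filter, 3 with limma on the deposited values, 1 with only the compared groups, 8 on replicates 2 and 3, 11 with the GC correction, and 22 with the replicate block, with or without the GC correction. The combination against untreated cells had 3 with library size alone, 12 with no filter, 8 with DESeq2, 2 with only the compared groups, 12 on replicates 2 and 3, 8 with the GC correction, 25 with the replicate block (MT-CO1 among them, 0.50) and 22 with both. The replicate block gave 54, 55, 56 and 61 for the 4 pools against untreated cells, and with the GC correction besides, 57, 59 and 62 for the last 3. With only the compared groups those 3 had 16, 20 and 22. BT-TR2 against BT-TR1 had 6 with only the compared groups, 36 on replicates 2 and 3, 11 with the GC correction, 43 with the replicate block and 32 with both. BT-TPR2 against BT-TPR1 had 1 with no filter, 7 with the replicate block, 2 with the GC correction and 9 with both. The share of all genes called moved as well. With the replicate block it was 26.2% for trastuzumab, beside 7.48% without the block. For the 4 pools against untreated cells it was 57.5%, 45.8%, 47.4% and 51.1%, beside 43.6%, 24.9%, 27.3% and 31.6%. Such shares are not given for every setting, so these counts and those with a library left out are no result about the members. The cause of these moves was not tested. The nuclear to MT- ratio of BT-TR1 was -0.025 on replicates 2 and 3.

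With each library left out in turn, calls ranged from 2 to 4 for trastuzumab, 1 to 4 for the combination, 27 to 34 for BT-TR1, 18 to 34 for BT-TR2, 23 to 31 for BT-TPR1, 25 to 39 for BT-TPR2 and 1 to 28 for BT-TR2 against BT-TR1. The other 2 comparisons stayed at 0. The ratio ranged from 0.479 to 0.690 in BT-TR2, 0.678 to 0.958 in BT-TPR1 and 0.422 to 0.727 in BT-TPR2. Of 104 calls of named members none turned direction under any setting, the replicate block kept all 104, the GC correction 88, library size alone 85, no filter 81 and only the compared groups 61. Library size alone moved the all-gene median by 0.14 in BT-TPR1. The lowest members, such as NDUFA7 at 163 counts in 21 libraries, allow only large changes to be called.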

Other observations

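Of 17 tested genes of the pyruvate dehydrogenase complex and the citric acid cycle, which feed the chain, 10 rose and 3 fell in BT-TR1, 9 rose in BT-TR2 and 8 in each of BT-TPR1 and BT-TPR2, and none fell in these 3. SUCLG1, a subunit of succinyl-CoA synthase, rose by 0.67, 0.73, 0.43 and 0.70, and CS, citrate synthase, by 0.43, 0.44, 0.43 and 0.52. IDH3G, of isocitrate dehydrogenase, fell by 0.95 in BT-TR1. Of 75 tested mitochondrial ribosomal proteins, which translate the MT- mRNAs, 33 rose and 9 fell in BT-TR1, and 23, 31 and 30 rose with no fall in BT-TR2, BT-TPR1 and BT-TPR2. MRPS6 rose by 0.99, 0.84 and 0.85 in those 3, and MRPL12 fell by 2.32 in BT-TR1. Beside these counts, 21.3%, 12.7%, 12.9% and 15.6% of all genes rose. The lists were chosen with earlier results known and are described by their counts. Their values had no GC correction, and the part of GC in the BT-TR1 falls was not tested.

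Of 22 glycolysis genes, BT-TR1 had 6 risen and 4 fallen, BT-TR2 8 and 2, BT-TPR1 5 and 2, and BT-TPR2 9 and 3, beside 21.3%, 12.7%, 12.9% and 15.6% of all genes risen and 22.3%, 12.1%, 14.4% and 16% fallen. HK2 and LDHA, hexokinase 2 and lactate dehydrogenase A, rose in all 4 pools, HK2 by 1.13, 0.62, 0.70 and 0.98 and LDHA by 1.04, 0.65, 0.72 and 0.71. SLC2A1, the glucose transporter, fell in all 4, at -1.15, -1.01, -0.90 and -0.86. LDHB fell by 1.12 in BT-TPR2 and differed from BT-TPR1 by -0.99 (edgeR adjusted p = 6e-06).

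The mitochondrial 16S rRNA, MT-RNR2, was lower in BT-TPR1 by -0.69 (edgeR adjusted p = 0.044).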
